A study of Mus musculus with 10 samples.

Results

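Genes of sphingosine 1-phosphate (S1P) signalling and turnover were examined in the livers of mice that lack both macroH2A histone variants. The set held 10 genes, namely the receptors S1pr1, S1pr2, S1pr3 and S1pr5, the kinases Sphk1 and Sphk2, the lyase Sgpl1, the phosphatase Sgpp1, the exporter Spns2 and the carrier Apom, out of 22180 genes that had at least 1 unshared probe set. They were chosen by symbol, on 11 probe sets that carry a single gene symbol, and a gene with several was represented by the probe set of highest mean over the 10 arrays. S1pr1 leads the set and was selected on its measured difference between the same wild-type and double knockout arrays, so its values are given as a description with no test.

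Whole liver was taken from males of the 129/S6 (taconic) strain at 2 months of age, killed in the morning after a fast of about 16 h. Of the 10 arrays, 5 were from wild-type mice and 5 from mice labelled macroH2A1 macroH2A2 double knockout; both groups were kept on low fat chow and fasted alike. The labels name no separate founder or litter for any sample, so p-values measure the spread between these arrays. The values were normalized log2 expression levels, and a difference is always double knockout minus wild type on that log2 scale.

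S1P is a lipid made inside cells when a kinase adds a phosphate to sphingosine, the backbone left when ceramide is broken down. It is exported, carried in blood plasma by apolipoprotein M on high density lipoprotein and by albumin, and read by G protein-coupled receptors on other cells. In liver, the receptors are known from sinusoidal endothelium, stellate cells, immune cells and hepatocytes, and hepatocytes are the main source of apolipoprotein M. Inside the cell, S1P is either turned back into sphingosine by phosphatases or broken down for good by the lyase.

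The knocked-out genes were read first. Macroh2a1 was at 9.51 to 9.66 in wild-type and 9.02 to 9.18 in double knockout arrays, so it fell by 0.49 (SE 0.05, limma adjusted p = 0.00128). Macroh2a2 was at 6.32 ± 0.28 and 6.12 ± 0.19 (SD, n = 5 each) and was not called (limma adjusted p = 0.514). Both of its means lay below 6.54, the 95th percentile of 1108 olfactory receptor probe sets, which serves below as a guide to background. No source used here says whether the Macroh2a1 and Macroh2a2 probes fall inside the deletions. Correlations between arrays ran from 0.989 to 0.995, and markers of hepatocytes, the main cells of the labelled tissue, averaged 12.97 in wild-type and 12.93 in double knockout arrays, with Alb at 14.19. Markers of pancreatic acinar cells averaged 8.76 and 9.86 in wild-type replicates 4 and 5 and 7.78 and 8.01 in double knockout replicates 1 and 2, against 5.78 to 6.36 in the other 6 arrays.

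S1pr1, the receptor that signals through Gi and keeps endothelial junctions tight, was lower in double knockout livers. Its levels were 9.36, 9.35, 9.32, 9.45 and 9.42 in wild-type replicates 1 to 5 and 8.91, 8.88, 8.64, 8.92 and 8.75 in double knockout replicates 1 to 5. Every double knockout array lay below every wild-type array, and the gap between the lowest wild-type and the highest double knockout array was wider than the whole range of either group. The means were 9.38 ± 0.05 and 8.82 ± 0.12 (SD, n = 5 each), a difference of -0.56 (SE 0.06), which is a level 32.1% lower. In whole liver, fewer cells of a type and less RNA per cell cannot be told apart. Over 24 other ways of fitting the data the S1pr1 difference stayed between -0.61 and -0.50. Several of these change only the variance model, the rows tested or the replicate block, which cannot move a difference of group means. The single S1pr1 probe set was the basis of all these values.

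S1pr5, a receptor best known from natural killer cells and from oligodendrocytes, fell. Wild-type replicates 1 to 5 were at 8.23, 8.56, 8.27, 8.66 and 8.20, and double knockout replicates 1 to 5 at 7.99, 7.90, 7.93, 8.02 and 7.83. The groups did not overlap, but wild-type replicates 2 and 4 stood well above the other 3 wild-type arrays, so the wild-type spread was the wider. The means were 8.38 ± 0.21 and 7.94 ± 0.07 (SD, n = 5 each), a difference of -0.45 (SE 0.09, limma adjusted p = 0.0402 over all probe sets tested), or a level 26.7% lower (95% CI 16.2 to 35.9%). S1pr5 was the 1 gene called among the 9 genes other than S1pr1, where 0.884% of the 25335 probe sets tested were called, 0.553% lower and 0.332% higher. It was also the 1 gene of these 9 whose groups did not overlap, against 3.90% of all probe sets, 2.15% lower and 1.75% higher. The balance of calls turned in fits without wild-type replicate 1, with 126 higher and 96 lower, and without double knockout replicate 1, with 133 and 120, in place of 84 and 140. At an unadjusted p under 0.05 there were 4 of the 9 genes (S1pr2, S1pr5, Spns2 and Sphk2), where 15.1% of all probe sets were.

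The S1pr5 call was close to the threshold. In fits that left out 1 array it was lost without wild-type replicate 2 (limma adjusted p = 0.107), 3 (0.0532) or 4 (0.0548) and without double knockout replicate 1 (0.0534), 2 (0.0813), 3 (0.0797), 4 (0.0738) or 5 (0.0944). The difference itself stayed between -0.49 and -0.38 in these fits. Over 24 other ways of fitting, these included, the call was lost in 15. When the fit took the mean of the pancreas markers as a covariate, S1pr5 had a difference of -0.44 (limma adjusted p = 0.0561), and without the 4 arrays in which these markers were high it had -0.42 (0.154). S1pr1 had -0.54 and -0.57 in the same fits.

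The groups of the other receptors in the set, S1pr2 and S1pr3, overlapped. S1pr2, which acts through G12 and G13 and in hepatocytes also answers conjugated bile acids, was at 8.69, 8.69, 8.61, 8.83 and 8.67 in wild-type replicates 1 to 5 and at 8.63, 8.48, 8.70, 8.53 and 8.48 in double knockout replicates 1 to 5. Double knockout replicates 1 and 3 lay within the wild-type range, and the difference of -0.13 (95% CI -0.26 to -0.01) was not called (limma adjusted p = 0.299). S1pr3, known from vascular and stellate cells, was at 9.14, 8.86, 9.01, 8.64 and 8.95 in wild type and at 8.89, 9.26, 8.97, 8.88 and 9.11 in double knockout livers. Its difference of 0.10 (95% CI -0.11 to 0.31) was not called either (limma adjusted p = 0.686), and it was -0.01 without the 4 arrays in which pancreas markers were high. The remaining receptor, S1pr4, a lymphocyte and myeloid receptor outside the set, was at 6.56 and 6.46 on average, about the olfactory receptor limit, with a difference of -0.10 (95% CI -0.30 to 0.10). Whether the S1pr1 or S1pr5 difference exceeds that of another receptor was not tested.

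**Figure D1:**
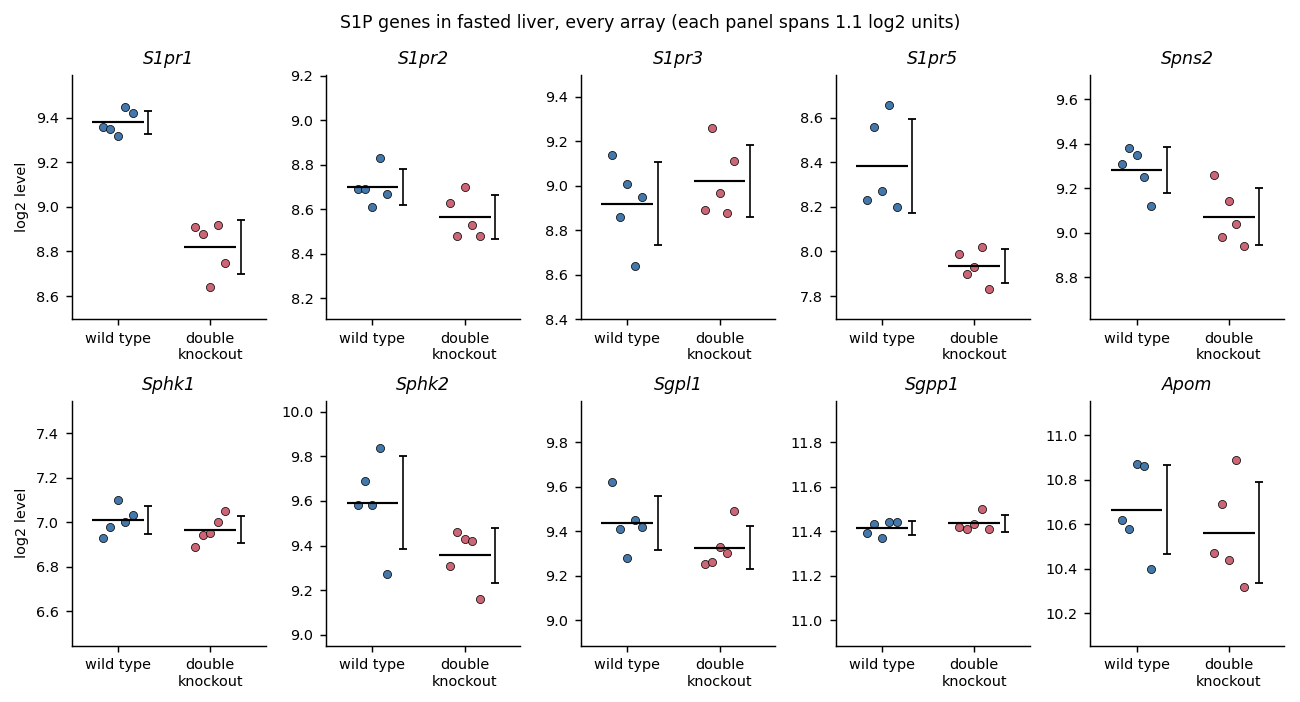
Log2 level (vertical axis) of each of the 10 S1P genes in the 5 wild-type and 5 double knockout arrays, 1 point an array in replicate order; horizontal lines are group means and bars are ± SD. The S1pr1 and S1pr5 groups are apart (wild-type S1pr1 from 9.32 to 9.45, double knockout from 8.64 to 8.92), while the groups of the other 8 genes overlap.

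S1pr2 and S1pr5 lie on the same chromosome with 9 protein-coding genes measured between them, and their upstream sequences are shown because S1pr5 is the called gene and S1pr2 the receptor gene nearest to it. Their differences were -0.45 and -0.13. Of the 10 genes, 9 had an entry in the RefSeq promoter table (build GRCm38.p6), S1pr1 not being among them. The 250 bases before the annotated start are given 5′ to 3′ on the gene's strand, which is the minus strand of chromosome 9 for both, at chr9:20976794-20977043 for S1pr2 and chr9:21248444-21248693 for S1pr5. Capitals mark the GC box GGGCGG, the KLF core CACCC and the cAMP response element TGACGTCA, each searched on both strands; none of the marked matches overlap.
S1pr2: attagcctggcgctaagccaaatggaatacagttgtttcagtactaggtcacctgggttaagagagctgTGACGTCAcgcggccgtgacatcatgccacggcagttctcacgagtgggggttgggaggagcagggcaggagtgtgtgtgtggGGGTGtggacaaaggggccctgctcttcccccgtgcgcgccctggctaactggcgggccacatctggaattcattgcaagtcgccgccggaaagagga
S1pr5: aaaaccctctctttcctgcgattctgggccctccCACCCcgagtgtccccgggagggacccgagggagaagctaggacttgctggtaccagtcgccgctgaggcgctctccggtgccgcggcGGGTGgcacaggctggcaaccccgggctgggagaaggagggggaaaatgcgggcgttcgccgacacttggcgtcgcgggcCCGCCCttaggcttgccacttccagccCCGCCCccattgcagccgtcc
The S1pr5 window held 2 GC boxes and 2 KLF cores, and the S1pr2 window held 1 cAMP response element and 1 KLF core. Among 32851 promoter windows of this length, 32.7% held a GC box, 52% a KLF core and 1.55% the cAMP response element. These matches describe the letters and show no binding.

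The exporter and the carrier were examined next. Spns2, the transporter through which endothelial cells release S1P, was at 9.31, 9.38, 9.35, 9.25 and 9.12 in wild-type replicates 1 to 5 and at 9.26, 8.98, 9.14, 9.04 and 8.94 in double knockout replicates 1 to 5. Of the double knockout arrays, 3 lay below the lowest wild-type array and 2 lay within the wild-type range. The difference of -0.21 (SE 0.07, 95% CI -0.36 to -0.06) did not pass over all probe sets (limma adjusted p = 0.172). Apom, the plasma carrier made by hepatocytes, ranged from 10.40 to 10.87 in wild-type and from 10.32 to 10.89 in double knockout arrays, with a difference of -0.10 (95% CI -0.35 to 0.15, limma adjusted p = 0.743). The Apom spread within each group was therefore wider than the difference between them.

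Among the enzymes, no gene was called. Sphk2, the kinase found in the nucleus and mitochondria, was at 9.58, 9.69, 9.58, 9.84 and 9.27 in wild-type and at 9.31, 9.46, 9.43, 9.42 and 9.16 in double knockout replicates 1 to 5. Over all 10 arrays the Sphk2 difference was -0.23 (SE 0.09, 95% CI -0.44 to -0.03, limma adjusted p = 0.27). The overlap rested on wild-type replicate 5, the lowest array of its group, as seen after the values were known. Without that array Sphk2 had -0.31 and was still not called (limma adjusted p = 0.0847). Sphk1, the kinase of the cytosol and plasma membrane, was at 6.93 to 7.10 and 6.89 to 7.05, with a difference of -0.04 (95% CI -0.14 to 0.06, limma adjusted p = 0.771). Sgpl1, the lyase of the endoplasmic reticulum, was at 9.28 to 9.62 and 9.25 to 9.49, with a difference of -0.11 (95% CI -0.25 to 0.03, limma adjusted p = 0.47).

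Sgpp1, which returns S1P to sphingosine, had the smallest difference of the set. It was at 11.37 to 11.44 in wild-type and 11.41 to 11.50 in double knockout arrays, a difference of 0.02 (95% CI -0.06 to 0.10, limma adjusted p = 0.86). Its second probe set had a mean level of 4.75, below the olfactory receptor limit, and a difference of -0.09 (limma adjusted p = 0.653). All 10 genes were above that limit on their main probe set. Of the 9 genes other than S1pr1, 7 had a lower mean in double knockout livers and the median difference was -0.11, beside 51.5% lower and a median of -0.003 over all probe sets tested.

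**Figure D2:**
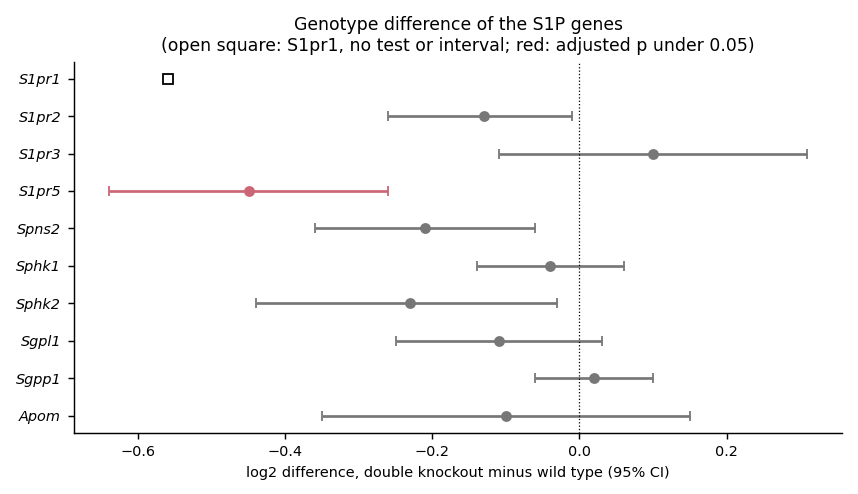
Log2 difference, double knockout minus wild type (horizontal axis), for the main probe set of each S1P gene, with bars for the 95% confidence interval from limma; S1pr1 is drawn as an open square without interval because it was not tested. S1pr5, at -0.45, is the gene in red that passed an adjusted p under 0.05, and the intervals of S1pr2, Spns2 and Sphk2 lie below 0 although these genes did not pass over all probe sets.

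Other genes of the pathway were read from 4 lists with 80 measured genes. Of these, 1 was called (1.25%, beside 0.884% of all probe sets tested), 53.8% had a lower mean and the median difference was -0.01. In the list of ceramide and sphingolipid synthesis, 23 of 25 genes could be read from an unshared probe set. At an unadjusted p under 0.05 there were 6 of the 23, where 15.1% of all probe sets were. In this list 1 gene was called, lower. This was Cers6, a ceramide synthase that prefers palmitoyl-CoA, which fell from 9.65 ± 0.05 to 9.31 ± 0.13 (SD, n = 5 each), a difference of -0.34 (SE 0.06, limma adjusted p = 0.0243). The wild-type arrays were at 9.60 to 9.69 for Cers6 and the double knockout arrays at 9.14 to 9.44, with no overlap. The Cers6 call was lost without wild-type replicate 2 (limma adjusted p = 0.063), 3 (0.0532) or 4 (0.0522) and without double knockout replicate 3 (0.0562) or 4 (0.061). Over 24 alternatives it was lost in 11, among them every row tested (0.0605), the endothelial (0.12), olfactory receptor (0.105) and macrophage (0.0962) covariates and the fit without the 4 arrays (0.134).

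Others in the synthesis list were not called. Sgms2, a sphingomyelin synthase, had a difference of -0.27 (limma adjusted p = 0.159), Ormdl2, of the family that restrains serine palmitoyltransferase, 0.15 (0.11) and Gltp, a glycolipid transfer protein, 0.14 (0.193). The probe sets of Cers2, the ceramide synthase of very long chains, disagreed. The one with the higher mean had -0.02 (limma adjusted p = 0.877), and the other, at 9.07 ± 0.21 and 8.68 ± 0.13 (SD, n = 5 each), had -0.39 with groups that did not overlap (limma adjusted p = 0.0863).

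Genes that supply sphingosine were measured for 15 of 16, with 0 called in limma and 2 at an unadjusted p under 0.05, no more than the 15.1% of all probe sets. Acer2, a Golgi ceramidase, had means of 9.50 ± 0.08 and 9.72 ± 0.06 (SD, n = 5 per group). Its groups did not overlap, and the difference was 0.22 (limma adjusted p = 0.0672). Asah2, the neutral ceramidase, had -0.13 (limma adjusted p = 0.249), the glucosylceramidase Gba2 0.20 (0.408) and the acid sphingomyelinase Smpd1 -0.07 (0.454).

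Among 17 further genes of S1P reception and handling, all measured, 0 were called in limma and 2 had an unadjusted p under 0.05, again no more than 15.1%. Scarb1, the high density lipoprotein receptor, was at 11.88 to 12.02 in wild-type and 11.64 to 11.80 in double knockout arrays. Its groups did not overlap, and the difference of -0.22 (SE 0.05) had a limma adjusted p = 0.0503, on the other side of the threshold under 8 of 24 alternatives. The kinase-binding protein Cib1 had 0.13 (limma adjusted p = 0.279), the lipid phosphate phosphatase Plpp3 -0.11 (0.344) and the lipid exporter Abca1 -0.09 (0.493). Mfsd2b, the S1P exporter of red cells and platelets, had 0.01 (95% CI -0.15 to 0.16).

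In the receptor signalling list 25 of 26 genes were measured, with 0 called in limma and 4 at an unadjusted p under 0.05, near the 15.1% of all probe sets. Ccn1, a matricellular gene that S1P and other serum factors induce, had the largest difference of the 4 lists, at -0.59 (SE 0.13, limma adjusted p = 0.0627). Its wild-type arrays ran from 8.84 to 9.53 and its double knockout arrays from 8.26 to 8.86, so the groups touched. Without the 4 arrays in which pancreas markers were high, the Ccn1 difference was -0.28 (limma adjusted p = 0.26), smaller than that of Cers6 at -0.31. Adcy6, an adenylyl cyclase that Gi inhibits, had -0.18 (limma adjusted p = 0.107), the Gi subunit Gnai1 0.30 (0.12) and Gna12 -0.12 (0.316). Klf2, a transcription factor known to raise S1pr1 in lymphocytes and endothelium, had 0.01 (95% CI -0.17 to 0.18), and Cd69, which pulls the S1pr1 protein off the cell surface, had -0.08 at a level below the olfactory receptor limit.

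**Figure D3:**
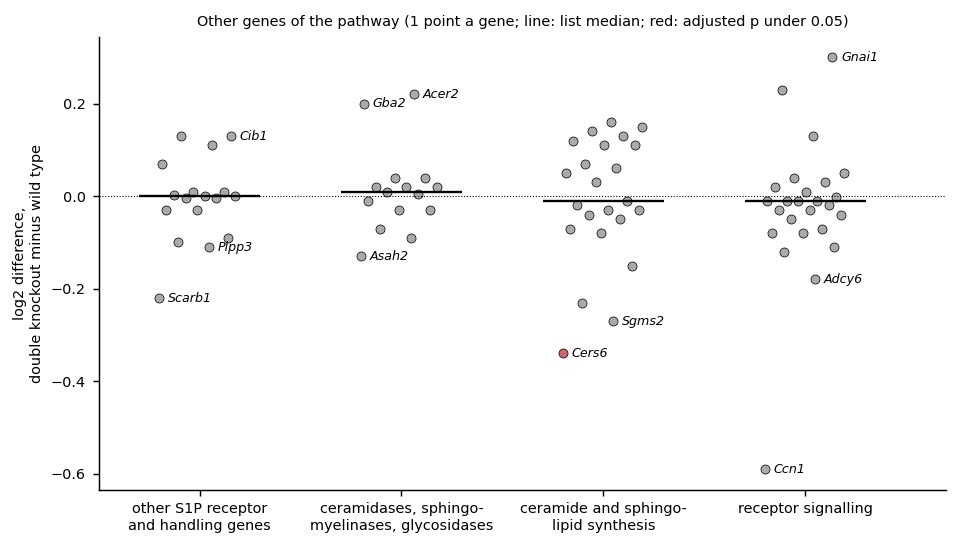
Log2 difference, double knockout minus wild type (vertical axis), of every measured gene in the 4 other pathway lists, 1 point a gene, with a line at each list's median. The medians lie within 0.01 of 0, Cers6 (-0.34) is the gene in red that was called, and Ccn1 (-0.59) lies lowest without being called.

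Cell type markers were set beside the receptors. Endothelial markers had higher means in double knockout livers for 14 of 18 genes, with 0 called in limma, 2 at an unadjusted p under 0.05 (15.1% over all probe sets) and differences from -0.09 to 0.13. The 4 of highest level were Clec4g (-0.08), Eng (0.04), Fcgr2b (-0.09) and Cdh5 (0.13). Their list mean per array was 9.59 to 9.65 in wild-type and 9.61 to 9.70 in double knockout arrays, a difference of 0.04 (exact permutation p = 0.0794, adjusted p = 0.212 over 8 marker lists), and -0.02 when the list was summed up by its median. The smallest p that 5 arrays against 5 allow is 0.00794.

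S1pr1 minus the endothelial marker mean of the same array was -0.25, -0.30, -0.33, -0.14 and -0.19 in wild-type replicates 1 to 5 and -0.79, -0.78, -1.0, -0.78 and -0.87 in double knockout replicates 1 to 5. The difference in this quantity was -0.60, beside -0.56 for S1pr1 alone. The marker mean differed by 0.04, so these values had to be close, and a link to endothelial content was not tested. The same quantity differed by -0.49 for S1pr5, -0.25 for Spns2, -0.17 for S1pr2 and 0.06 for S1pr3.

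Lymphocyte and natural killer cell markers stood at 6.13 ± 0.06 and 6.14 ± 0.07 (SD, n = 5 each; exact permutation p = 0.81, adjusted p = 0.81 over 8 lists). Of its 12 measured genes 5 had a mean level above the olfactory receptor limit, and the natural killer markers Ncr1, Klrb1c and Gzma, with mean levels of 5.50, 5.10 and 4.47, did not. Their differences were 0.07, -0.04 and -0.01, from levels at which little can be read. The 5 above the limit were Ccl5 (0.28), Cd3e (0.13), Nkg7 (0.09), Cd79a (-0.14) and Cd79b (-0.28), none of them called in limma, with Ccl5 and Cd79b at an unadjusted p under 0.05. Over the 12 measured genes, 6 had a higher and 6 a lower mean in double knockout livers. Whether the S1pr5 difference goes with the number of natural killer cells was not tested.

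Macrophage markers had higher means in double knockout livers for all 14 genes. Of these, 2 were called higher in limma, where 0.332% of all probe sets were. At an unadjusted p under 0.05 there were 8 of the 14, where 15.1% of all probe sets were. Their list mean was 8.76 to 9.08 in wild-type and 8.98 to 9.30 in double knockout arrays (exact permutation p = 0.0238, adjusted p = 0.19 over 8 lists). With this mean as a covariate the S1pr1 difference was -0.61 and that of S1pr5 -0.54. Stellate cell markers were at 9.39 ± 0.05 and 9.36 ± 0.05 and hepatocyte markers at 12.97 ± 0.07 and 12.93 ± 0.03 (SD, n = 5 each), with exact permutation p = 0.294 and 0.333 (both adjusted p = 0.444 over 8 lists). Means were lower for 9 of 12 stellate and 8 of 11 hepatocyte markers, beside 51.5% of all probe sets, with 0 called in limma. Stellate differences ran from -0.17 to 0.33. Of the stellate markers 2, Reln (-0.17) and Colec11 (-0.17), had an unadjusted p under 0.05, near the 15.1% of all probe sets, and 0 hepatocyte markers did. Among the rest, erythroid and platelet markers differed by 0.07, cholangiocyte markers by 0.17 and pancreatic markers by -0.48, with exact permutation p = 0.246, 0.0714 and 0.603. Of the cholangiocyte markers Krt23 rose by 0.85 (limma adjusted p = 0.0161), and the other 5 had differences from -0.12 to 0.16.

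**Figure D4:**
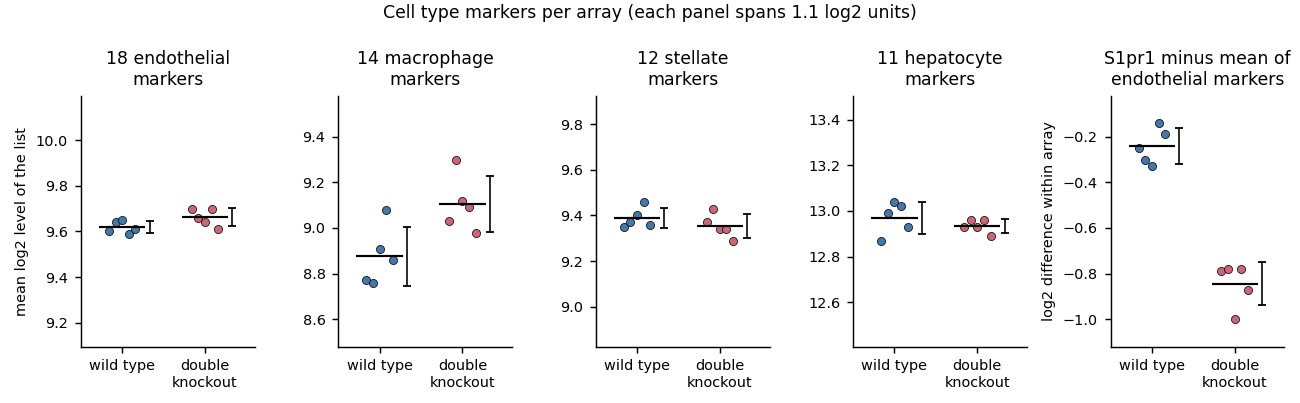
Mean log2 level per array of endothelial, macrophage, stellate and hepatocyte marker lists and, at the right, S1pr1 minus the endothelial marker mean of the same array (vertical axes), in 5 wild-type and 5 double knockout arrays; lines are group means and bars ± SD. The endothelial means overlap between 9.59 and 9.70, while the relative S1pr1 values run from -0.33 to -0.14 in wild-type and from -1.0 to -0.78 in double knockout arrays.

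Within the groups, the genes whose deviations from the group mean were most like those of S1pr1 over the 10 arrays were Ccdc134 (Pearson r = 0.943), Mef2c (0.93), Apold1 (0.925), Frmd4a (0.917), Cnn2 (0.913), Rap1gds1 (0.907), Tagln2 (0.905) and Cryaa (0.901), out of 12556 genes above the olfactory receptor limit. These are the highest of many values over few arrays that share their normalization, and are a description. None of the 8 was called in limma between the genotypes; Tagln2 alone had an unadjusted p under 0.05. Mef2c had a difference of -0.12 and Apold1, an early response gene of endothelium, -0.07. For S1pr5 the same r was 0.308, for Cdh5 0.295 and for Pecam1 0.271.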

How the data were processed

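Deposited log2 levels, 1 per probe set and array, were used as they stood. The submitters' processing notes name Affymetrix Expression Console; the version, summarisation and normalization that the authors chose were not named in what was used here. Array medians lay between 6.43 and 6.46, which shows that arrays had been brought to a common scale. Scanner files and detection calls were not analysed here, and the number of arrays limits the precision.

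Of 41345 probe sets, 23521 carried 1 gene symbol in the platform annotation, 1814 several and 16010 none. The 25335 with a symbol entered the linear model of limma 3.58.1 (R 4.3.3; lmFit, then eBayes; group as the only term, two-sided), with Benjamini-Hochberg adjustment over all of them. A call is an adjusted p under 0.05, and shares of all probe sets are taken over these 25335. Marker list means were compared by two-sided exact permutation tests over arrays. Genes, lists and tests were chosen with earlier results of these data known. Named were all 10 S1P genes, called genes and up to 4 of lowest p in each other pathway list, up to 4 markers of highest level for lists described gene by gene, and the 8 genes most like S1pr1. S1pr4, Mfsd2b, Klf2, Cd69, Cers2, Krt23 and the lymphocyte and natural killer markers were added for their roles or for disagreeing probe sets, with values known. The fit was tested on simulated data for the 25335 probe sets of this comparison: 91% of 67 with a log2 change of 0.5 were called, and 44.8% of 67 with a change of 0.3. The simulated noise was normal and independent for each probe set and array. Variation that probe sets share within an array was left out, so these rates need not hold for the real arrays. Alternatives covered the variance model, array weights, normalization, filters, covariates, the replicate number as a block and leaving out arrays. The macrophage covariate and the fit without 4 arrays were chosen after seeing the data. Promoter sequences came from RefSeq (GRCm38.p6).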

Additional observations from a re-analysis of the deposited data

Results flagged for a closer look

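Of 44 groups of 5 values examined for a single array far from the others, 2 stood out, and chance gives about 1 in 20. Sgpp1 was at 11.50 in double knockout replicate 4, while the other 4 double knockout arrays were at 11.41 to 11.43. Double knockout replicate 2 had a lymphocyte and natural killer marker mean of 6.27, and the other 4 arrays of its group had 6.08 to 6.12.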

How the results depend on the processing

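Of the 25335 probe sets tested, 224 were called. The count was 377 with probe sets above the olfactory receptor limit, 75 with every row of the table tested, 76 with the replicate block, 29 with the endothelial marker mean as covariate, 53 with the olfactory receptor mean, 28 with the macrophage marker mean and 68 without the 4 arrays in which pancreas markers were high. Leaving out 1 array gave 64 to 253, being 64, 144 and 131 when wild-type replicates 2, 3 and 4 were dropped in turn, and 135, 124, 68 and 87 for double knockout replicates 2, 3, 4 and 5. The count of called S1P genes other than S1pr1 was 0 in place of 1 with every row tested, with the replicate block, with the endothelial, pancreas, olfactory receptor or macrophage mean as covariate and without the 4 arrays, and 0 to 1 without single arrays. In these fits S1pr5 kept its sign, with differences from -0.54 to -0.38 and limma adjusted p from 0.0258 to 0.174 over 24 alternatives. Testing every row lengthens the list that p-values are adjusted over and also refits the variance model. Why the counts changed was not tested for any of these fits. Without the 4 arrays, S1pr3 had -0.01 and Sphk1 0.002, both of the other sign. The median over the endothelial markers gave -0.02, also of the other sign. S1pr1 kept its sign in all 24 alternatives, several of which cannot move a difference of group means. The S1pr1 difference ran from -0.61 to -0.50 in these fits, beside -0.56 (SE 0.06) in the main fit. Same-numbered arrays deviated from their group means with correlations from -0.48 to 0.13. This gives no sign that the replicate numbers pair the samples, but cannot settle it. With the replicate block S1pr5 had -0.45 (limma adjusted p = 0.068) and Cers6 -0.34 (0.0769).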

Other observations

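The protein-coding genes next to each S1P gene, chosen after the values were seen, were read from the same fit, 2 on either side and 40 in all. Of these, 1 was called (2.5%, beside 0.884% of all probe sets tested) and 6 had an unadjusted p under 0.05, a share like the 15.1% of all probe sets. It was Mybbp1a, a nucleolar protein gene beside Spns2, which rose from 9.19 ± 0.06 to 9.44 ± 0.06 (SD, n = 5 each), a difference of 0.26 (limma adjusted p = 0.0266), while Spns2 itself had -0.21. The neighbours of S1pr1, namely Col11a1, Olfm3, Dph5 and Slc30a7, had 0.06, -0.05, -0.11 and -0.08. Between S1pr2 and S1pr5 lie 9 measured genes, Mrpl4, Icam1, Icam4, Icam5, Zglp1, Tyk2, Cdc37, Pde4a and Keap1, of which 0 were called in limma and 0 had an unadjusted p under 0.05. Their differences ran from -0.10 to 0.09, against -0.45 for S1pr5. On the far side of S1pr5, Atg4d had -0.17 (limma adjusted p = 0.22) and Kri1 -0.01 (0.964). Dbp, beside Sphk2, had -0.27 (limma adjusted p = 0.0837). Of the 40 neighbours, 24 had a lower mean in double knockout livers, where 51.5% of all probe sets tested did.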
